A study of Mus musculus with 14 samples.

Results

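The 8 mouse adrenergic receptor genes Adrb1, Adrb3, Adra1a, Adra1b, Adra1d, Adra2a, Adra2b and Adra2c are described here by their mRNA level in heart and in gonadal white adipose tissue (gWAT), and by how that level differed in mice lacking Fhl2. They were chosen by symbol, each as the row of the count table whose Ensembl identifier maps to it, and make up 8 of 33459 gene identifiers. Fhl2 encodes a cofactor with LIM domains that is abundant in heart muscle. The groups were KO hearts (4 libraries, numbered 1 to 4), WT hearts (4, numbered alike), KO gWAT (3, numbered 1, 3 and 4) and WT gWAT (3, numbered alike). KO stands for the Fhl2-/- genotype and WT for wild type. All of these mice, WT included, were C57BL/6, 21 weeks old and on a high-fat diet for the last 8 weeks. The labels do not say which part of Fhl2 was removed, nor that each library came from its own animal, so p-values measure the spread between these samples.

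Adrenergic receptors bind noradrenaline and adrenaline and fall into classes by the G protein they couple to. Beta receptors couple to Gs and raise cyclic AMP, which speeds and strengthens the heartbeat through protein kinase A in heart muscle and starts the breakdown of stored fat in adipocytes. Alpha-1 receptors couple to Gq and phospholipase C, which contracts blood vessels and, in heart muscle, feeds growth signals. Alpha-2 receptors couple to Gi and lower cyclic AMP. They restrain noradrenaline release from nerve endings as well as fat breakdown.

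The heart libraries held between 10835092 and 13272412 counted reads, and those of gWAT between 15105019 and 16040188. Fhl2 itself had a log2 fold change of -5.14 ± 0.14 (SE) in KO hearts (edgeR, adjusted p = 1.99e-08) and of -3.78 ± 0.31 in KO gWAT (adjusted p = 0.0101), the gWAT call being kept in 9 of 14 alternative analyses. In gWAT 834 of 15200 tested genes passed an adjusted p of 0.05 (305 higher and 529 lower in KO), and in heart 1 of 14159 did, which was Fhl2. The tissue labels were checked with defining genes. Adipoq (adiponectin) was followed in CPM (counts scaled to a common library size), here by library totals alone. It stood at 3360 to 4050 CPM in KO gWAT and at 1860 to 2590 CPM in WT gWAT. In hearts it was at 4.11 to 15 CPM in KO and 2.25 to 27.2 CPM in WT. Atrial muscle genes split the heart libraries by number. The mean log2 CPM of 6 such genes was 9.02 and 9.11 in KO hearts 1 and 2, 6.12 and 6.63 in KO hearts 3 and 4, 8.71 and 7.65 in WT hearts 1 and 2, and 2.42 and 3.82 in WT hearts 3 and 4.

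The receptor profile of gWAT was dominated by Adrb3, the beta receptor of rodent adipocytes. To compare levels between genes, counts were divided by library size and by merged exon length (RPKM, which is CPM per kilobase of exon). Adrb3 stood at 102 ± 10.6 RPKM in KO gWAT and 41.8 ± 13.6 RPKM in WT gWAT (SD, n = 3 each). That was 90.9 ± 1.75% of the summed RPKM of the 8 receptors in KO gWAT and 80.7 ± 5.29% in WT gWAT. Adra1d, a Gq-coupled receptor of blood vessels, came next with 5.36 ± 0.493 RPKM in KO gWAT and 5.72 ± 0.498 RPKM in WT gWAT. Its share of the sum was 4.85 ± 0.83% in KO gWAT and 11.7 ± 3.35% in WT gWAT, a lower share at nearly the same level, because the sum holds Adrb3. The sum itself was 112 ± 9.43 RPKM in KO gWAT and 51.3 ± 13.6 RPKM in WT gWAT.

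Below these, Adra1a, another Gq-coupled subtype, stood at 2.38 ± 0.277 RPKM in KO gWAT and 2.44 ± 0.413 RPKM in WT gWAT. Adrb1, the main beta receptor of heart muscle, followed with 1.29 ± 0.263 RPKM in KO gWAT and 0.712 ± 0.335 RPKM in WT gWAT. Adra1b, the third Gq-coupled subtype, was at 0.785 ± 0.329 RPKM in KO gWAT and 0.451 ± 0.0649 RPKM in WT gWAT. The ranges of Adrb1 and Adra1b overlapped in both genotypes, so their order was not resolved, whereas the steps above them did not overlap. The alpha-2 genes Adra2a, Adra2b and Adra2c had means of 0.0484 to 0.0979 RPKM in KO gWAT and of 0.0301 to 0.092 RPKM in WT gWAT, and neighbours in their order overlapped. In WT gWAT the range of Adra2a, 0.0775 to 0.113 RPKM, lay above that of Adra2c, which reached 0.0703 RPKM. With coding length in place of exon length Adra1a moved above Adra1d in gWAT, and Adrb3 kept the first place with any of the 3 lengths tried.

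**Figure D1:**
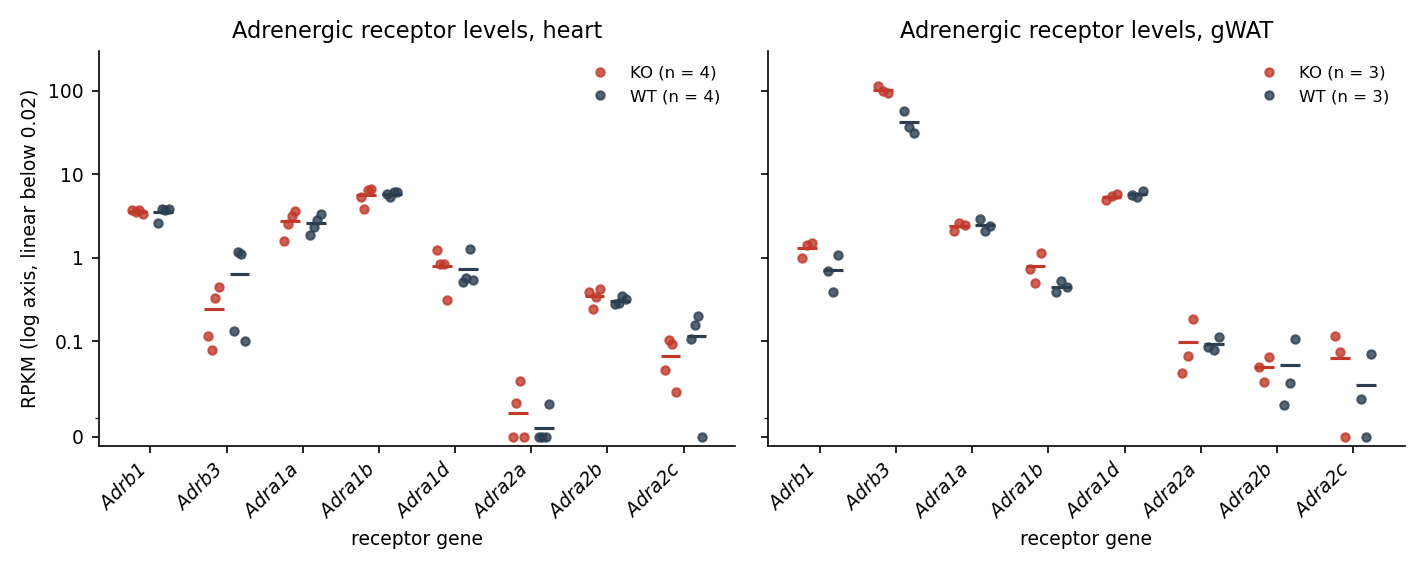
Level of each receptor gene in RPKM (log axis, linear below 0.02) in heart (left panel) and gWAT (right panel). Each point is a library, KO left of WT, and the short line is the group mean. Libraries were scaled within each tissue. Adrb3 in gWAT lies above the other receptors of either tissue, while in heart Adra1b, Adrb1 and Adra1a lead.

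The heart used a different set. Adra1b was the leading receptor with 5.55 ± 1.28 RPKM in KO hearts and 5.81 ± 0.348 RPKM in WT hearts (SD, n = 4 each), which was 41.3 ± 4.66% of the receptor sum in KO hearts and 43.1 ± 5.64% in WT hearts. Adrb1 was second with 3.56 ± 0.168 RPKM in KO hearts and 3.49 ± 0.587 RPKM in WT hearts, and its range lay below that of Adra1b in both genotypes. Adra1a followed with 2.71 ± 0.892 RPKM in KO hearts and 2.57 ± 0.622 RPKM in WT hearts, overlapping Adrb1. These 3 genes outranked the rest with any length tried, but the order among them depends on it. The merged exons of Adra1a span 8728 bases, against 4282 for its longest transcript and 1412 for its coding part. By its mean, Adra1a took second place with the longest transcript and first place with the coding length. The coding length gave it 16.8 ± 5.51 RPKM in KO hearts and 15.9 RPKM on average in WT hearts. With either of these lengths its range overlapped that of Adra1b in both genotypes, so their order was not resolved.

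The remaining 5 receptors were low in heart. Adra1d had 0.802 ± 0.378 RPKM in KO hearts and 0.72 ± 0.373 RPKM in WT hearts. Adra2b, a Gi-coupled subtype, had 0.346 ± 0.0782 RPKM in KO hearts and 0.305 ± 0.032 RPKM in WT hearts. Adrb3 had 0.242 ± 0.176 RPKM in KO hearts and 0.628 ± 0.592 RPKM in WT hearts, where the SD nearly equals the mean. Adra2c, another Gi-coupled subtype, had 0.0659 ± 0.0371 RPKM in KO hearts and 0.116 ± 0.0863 RPKM in WT hearts. Adra2a, the alpha-2 subtype of sympathetic nerve endings and adipocytes, was close to absent from heart, with 3 reads over the 4 KO hearts and 1 read over the 4 WT hearts. A library at 0 allows a level of up to 0.226 to 0.277 CPM at this depth (3 counts, counting error only). The summed RPKM of the receptors was 13.3 ± 1.89 in KO hearts and 13.6 ± 1.79 in WT hearts.

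The difference between the tissues was tested in WT libraries within 1 fit of all 14 libraries, as heart over gWAT. The levels above were scaled within each tissue, so their ratios between tissues need not match these fold changes. Of the 8 receptors 6 passed the filter on low counts, and all 6 differed by edgeR's quasi-likelihood test: 4 were higher in heart, where 33.9% of all 16014 tested genes were called higher, and 2 were lower in heart, where 36.6% were called lower. With most genes called, the count of receptors says little about them. Adra1b had a log2 fold change of 4.21 ± 0.26 (18.4-fold higher in heart, edgeR, adjusted p = 9.32e-10), Adra2b of 3.0 ± 0.45 (8.02-fold, adjusted p = 2.13e-05) and Adrb1 of 2.81 ± 0.25 (7.0-fold, adjusted p = 8.69e-08). Adrb3 had -5.54 ± 0.48 (46.5-fold lower in heart, edgeR adjusted p = 4.74e-08) and Adra1d -2.47 ± 0.32 (5.55-fold lower, adjusted p = 4.23e-06). These 5 kept their direction and call in the 22 alternatives run, but their sizes moved. Between KO hearts and KO gWAT the log2 difference was -8.16 for Adrb3, 3.35 for Adra1b and 1.99 for Adrb1. For Adrb3 limma-voom gave -6.21 in WT, for Adra1b library totals alone gave 3.62, and for Adra2b leaving out gWAT WT library 4 gave 4.02.

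Adra1a was the exception. It was higher in heart by 0.60 ± 0.24 on the log2 scale (edgeR, adjusted p = 0.0375), a call kept in 17 of 22 alternatives. Scaling by library totals alone left a log2 difference of 0.02 (adjusted p = 0.927). That scaling, added after the data were seen, lowers the median of all genes by 0.57 on the log2 scale and turns the split of calls from 5426 higher and 5869 lower in heart into 3121 higher and 9070 lower. Because a tissue's mRNA is shared out among its cells, fewer cells of a type and less RNA per cell cannot be told apart in these bulk libraries, here and in the comparisons that follow.

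The stretch of 250 bases before the transcription start is shown for the pair of receptors that led the heart profile and were many-fold lower in gWAT. The sequences are those of RefSeq on GRCm38.p6, each written 5′ to 3′ on the strand of the gene. Capitals mark motif matches on either strand. The search covered 5 motifs. The GC box is spelled GGGCGG. The CCAAT box is spelled as its name. The core of the cyclic AMP response element is spelled TGACG. The TATA box was searched as TATAA. The E-box was searched as CANNTG. Adrb1 lies on the plus strand of chromosome 19 (gene from 56722199 to 56733113, ENSMUSG00000035283) and its window is chr19:56721867-56722116. Adra1b lies on the minus strand of chromosome 11 (gene from 43774606 to 43901210, ENSMUSG00000050541) and has a distal start with the window chr11:43901238-43901487. Its proximal start, inside an intron of the longer transcripts, has the window chr11:43836490-43836739.
Adrb1: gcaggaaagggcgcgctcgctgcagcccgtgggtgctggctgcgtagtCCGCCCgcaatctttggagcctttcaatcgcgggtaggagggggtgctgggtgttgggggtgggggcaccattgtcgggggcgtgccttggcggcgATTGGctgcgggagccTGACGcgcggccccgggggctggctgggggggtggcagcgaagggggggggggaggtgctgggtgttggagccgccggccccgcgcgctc
Adra1b distal start: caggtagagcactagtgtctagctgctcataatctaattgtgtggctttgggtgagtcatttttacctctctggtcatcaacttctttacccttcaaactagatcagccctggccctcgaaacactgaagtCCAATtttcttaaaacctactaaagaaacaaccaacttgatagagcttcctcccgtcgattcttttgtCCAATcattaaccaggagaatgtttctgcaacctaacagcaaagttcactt
Adra1b proximal start: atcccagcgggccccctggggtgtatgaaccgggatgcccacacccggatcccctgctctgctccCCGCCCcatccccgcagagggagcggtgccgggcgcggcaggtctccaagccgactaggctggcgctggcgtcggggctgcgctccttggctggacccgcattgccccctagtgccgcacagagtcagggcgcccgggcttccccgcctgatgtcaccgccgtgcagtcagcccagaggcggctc
The Adrb1 window holds 74.0% G and C with 24 CpG dinucleotides, and a match to 3 of the motifs: the GC box at -202 to -197, the CCAAT box at -106 to -102 and the cyclic AMP core at -90 to -86, counted back from the start. The proximal Adra1b window is of the same kind, with 72.8% G and C, 22 CpG dinucleotides and a GC box at -185 to -180. The distal Adra1b window is unlike it, with 41.6% G and C, 3 CpG dinucleotides and CCAAT boxes at -119 to -115 and -51 to -47. Among 32851 mouse windows of the same length the median was 52.4% G and C, and 32.7% held the GC box, 33.8% the CCAAT box and 17.8% the cyclic AMP core, with no matches overlapping in the windows printed. The TATA box was in 22.8% and the E-box in 66.2% of all windows, and neither spelling is in the 3 windows printed. A match describes letters and does not show that a factor binds, and the counts per gene do not tell which Adra1b start was used. Of the 8 receptors 5 had a window in the table of starts used here.

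Adrb3 was the receptor that passed the test in KO gWAT. The gene (ENSMUSG00000031489; GRCm38 chromosome 8, bases 27225776 to 27250616, minus strand) had 382, 335 and 312 CPM in the 3 KO libraries, against 193, 124 and 106 CPM in the 3 WT libraries. The lowest KO library lay well above the highest WT library, and the spread among WT libraries was the larger one. The means were 343 ± 35.7 CPM in KO gWAT and 141 ± 45.9 CPM in WT gWAT (SD, n = 3 each), resting on 15863 and 6542 reads. The log2 fold change was 1.28 ± 0.22, a 2.43-fold higher level (edgeR, adjusted p = 0.0263). It was the 1 call among the 5 receptors that passed the filter on low counts in gWAT, where 5.49% of all tested genes were called, and in 13.3% of them every KO library lay above every WT library. Among the 305 genes called higher it ranked 67th by fold change.

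The call on Adrb3 depended on the libraries and on how their spread was estimated. Its direction held in all 14 alternatives, with log2 fold changes of 1.11 to 1.58, and it passed in 7 of them. Leaving out WT library 3 or 4 gave an adjusted p of 0.0573 or 0.121, and leaving out KO library 1, 3 or 4 gave 0.112, 0.0911 or 0.0985 (edgeR). With WT replicate 1 left out, the WT library nearest to KO, it was 0.000147. Exons of Adrb3 share 839 bases with the antisense gene Gm45470, which had 106, 100 and 83 reads in KO gWAT and 78, 49 and 49 in WT gWAT. Those of Adra1d share 147 bases with the antisense gene Gm14285, which had 3 reads in all KO gWAT libraries together and 7 in WT gWAT. Whether reads were counted by strand is not given in the sources used here, so reads of either pair may not be separable.

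**Figure D2:**
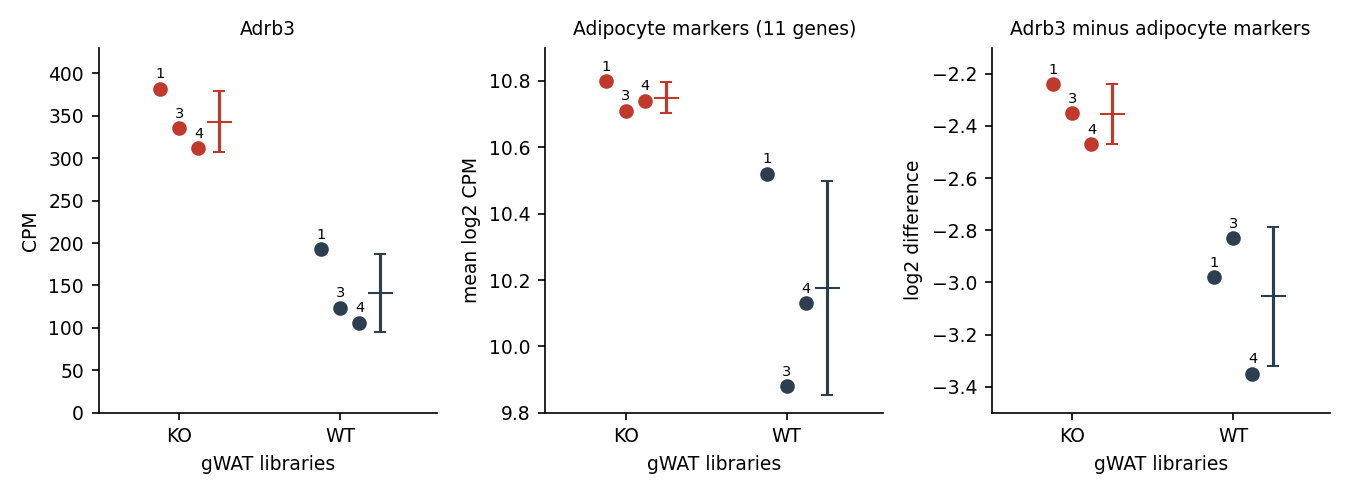
Adrb3 in CPM (left), the mean log2 CPM of 11 adipocyte marker genes (middle) and the log2 difference between Adrb3 and those markers (right) in gWAT, with KO left of WT. Points are libraries with their replicate number, bars are mean and SD; the middle and right axes do not start at 0. KO libraries lie above WT libraries in each panel.

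Adipocyte genes were followed in the same libraries. The mean log2 CPM of 11 adipocyte markers was 10.80, 10.71 and 10.74 in KO gWAT, against 10.52, 9.88 and 10.13 in WT gWAT. Of these 11 genes 2 were called higher in KO gWAT (Cfd, which encodes adipsin, and Retn, which encodes resistin), where 2.01% of all tested genes were called higher. The other 9 did not pass, 10 of the 11 had a positive log2 fold change, and the median was 0.49, against 0.00 over all tested genes. Lep, which encodes leptin, had the negative one at -0.45 ± 0.27 (edgeR, adjusted p = 0.349). Their summed level overlapped, with 34000 to 37900 CPM in KO gWAT and 25300 to 34600 CPM in WT gWAT. Of 10 macrophage genes 4 were called lower, where 3.48% of all tested genes were, with a mean log2 CPM of 6.99 to 7.10 in KO gWAT and 7.34 to 8.47 in WT gWAT. Of 8 genes of lipid-associated macrophages 6 were called lower, and their mean log2 CPM was 6.11 to 6.29 in KO gWAT and 7.22 to 8.80 in WT gWAT. Of 5 mesothelial genes 3 were called higher, against the same 2.01%, with a mean log2 CPM of 5.32 to 5.81 in KO gWAT and 4.11 to 4.83 in WT gWAT.

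Adrb3 was also set against the adipocyte markers of the same library. Its log2 CPM minus the marker mean was -2.24, -2.35 and -2.47 in KO gWAT, against -2.98, -2.83 and -3.35 in WT gWAT. The means were -2.35 ± 0.12 in KO gWAT and -3.06 ± 0.27 in WT gWAT (SD, n = 3 each). The groups did not overlap, and KO exceeded WT by 0.70 on the log2 scale. The two-sided exact permutation test gave p = 0.1, the smallest that 3 against 3 libraries allow, and 0.3 after adjustment over the 3 receptor ratios tested. Against Adipoq alone KO exceeded WT by 0.52. The part of the cell makeup in the Adrb3 difference was not tested beyond these ratios.

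The other beta receptor, Adrb1, was higher on average in KO gWAT without passing the test. It had 3.36, 4.75 and 5.02 CPM in KO libraries, against 2.34, 1.31 and 3.57 CPM in WT libraries. The highest WT library overlapped the lowest KO library. The log2 fold change was 0.86 ± 0.36 (edgeR, adjusted p = 0.197), on 203 reads in KO and 114 reads in WT gWAT. Adra1b showed a like picture, with 2.44, 1.67 and 3.86 CPM in KO libraries and 1.31, 1.75 and 1.51 CPM in WT libraries. Its groups overlapped too, and the log2 fold change was 0.80 ± 0.35 (adjusted p = 0.218). Neither gene passed in any of the 14 alternatives, with adjusted p of 0.0585 to 0.405 for Adrb1 and of 0.107 to 0.557 for Adra1b.

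The Gq-coupled receptors Adra1a and Adra1d were close to level between the genotypes in gWAT. Adra1d had 9.16, 10.4 and 11 CPM in KO libraries, against 10.5, 10.1 and 11.9 CPM in WT libraries. Its log2 fold change was -0.09 ± 0.14 (adjusted p = 0.739). Adra1a had 18.2, 23.0 and 21.3 CPM in KO libraries, against 25.2, 18 and 20.6 CPM in WT libraries, with a log2 fold change of -0.03 ± 0.15 (adjusted p = 0.933). For both the standard error is small beside the 1.28 of Adrb3, and their groups overlapped. Of the 5 tested receptors 3 had a positive log2 fold change in gWAT. Their median of 0.80, against 0.00 over all tested genes, is the value of Adra1b and does not describe the 5 as a set.

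The alpha-2 receptors, which oppose the beta receptors on cyclic AMP, were too low in gWAT for the test. Adra2a had 3, 5 and 14 reads in KO libraries, against 6, 6 and 9 reads in WT libraries. Adra2b had 3, 2 and 4 reads in KO libraries, against 1, 2 and 7 reads in WT libraries. Adra2c had 6, 4 and 0 reads in KO libraries, against 1, 0 and 4 reads in WT libraries. The groups overlapped for each of the 3 genes, and no difference was detectable at this depth. Adra2a is the antilipolytic counterpart of Adrb3, and the log2 ratio of Adrb3 to Adra2a per exon length was 11.43, 10.55 and 8.95 in KO gWAT, against 9.38, 8.89 and 8.12 in WT gWAT. The ranges overlapped, and KO exceeded WT by 1.51 (two-sided exact permutation test, p = 0.2, adjusted 0.3), a ratio that rests on the few Adra2a reads.

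**Figure D3:**
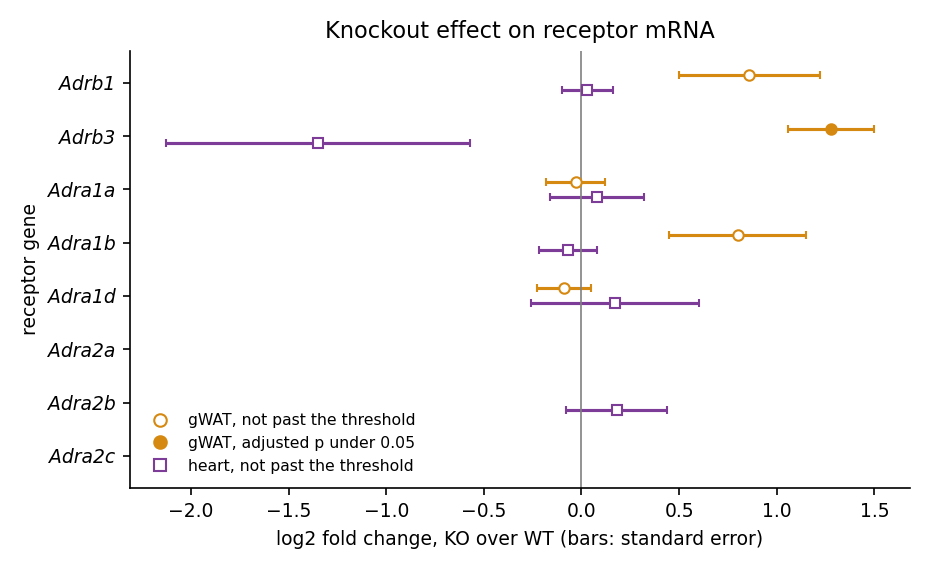
Log2 fold change of KO over WT for each receptor gene in gWAT (circles) and heart (squares), with the standard error as bars. A filled symbol passed an adjusted p of 0.05, and genes without a symbol in a tissue were too low to be tested there. Adrb3 in gWAT is the 1 filled symbol, and Adrb1, Adra1a and Adra1b in heart lie close to no change.

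In the heart none of the 6 tested receptors passed the test, where 0.00706% of all tested genes were called. Adrb1 had 12.4, 11.8, 12.6 and 11.3 CPM in KO hearts, against 8.82, 12.8, 12.7 and 12.9 CPM in WT hearts. WT heart 1 stood below the other 7 libraries, and the log2 fold change was 0.03 ± 0.13 (edgeR, adjusted p = 1.0). Adra1b had 18.1, 12.9, 21.9 and 22.2 CPM in KO hearts, against 19.4, 18.1, 20.5 and 20.7 CPM in WT hearts. Here KO heart 2 stood below the rest, and the log2 fold change was -0.07 ± 0.15. With the atrial level as a covariate that value was 0.04, so its sign is not settled. At an unadjusted p of 0.05 the edgeR test picked 453 genes in heart and none of the tested receptors, and the counts of called genes with DESeq2 and limma-voom were 2 and 1.

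Adra1a in the heart followed the library number more than the genotype. It had 13.6, 21.8, 27.9 and 31.4 CPM in KO hearts 1 to 4, against 16.3, 20.1, 24.4 and 28.9 CPM in WT hearts 1 to 4. Libraries 1 and 2, which were high in atrial genes, held less Adra1a than libraries 3 and 4 in both genotypes. The log2 fold change between genotypes was 0.08 ± 0.24 (adjusted p = 1.0), and it was 0.36 with the atrial level as a covariate (adjusted p = 0.612). The part of the atrial share in the Adra1a levels was not tested further.

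The lower receptors of the heart gave wide estimates. Adra1d had 30, 18, 20 and 7 reads in KO hearts, against 13, 14, 28 and 12 reads in WT hearts, and a log2 fold change of 0.17 ± 0.43. Adra2b had 20, 11, 17 and 20 reads in KO hearts, against 15, 15, 16 and 15 reads in WT hearts, and a log2 fold change of 0.18 ± 0.26. Both had overlapping groups and an adjusted p of 1.0. Adra2c had 1 to 4 reads in KO hearts and 0 to 8 reads in WT hearts and was not tested. The balance of the leading beta and alpha-1 receptor, the log2 ratio of Adrb1 to Adra1b per exon length, was -0.61 ± 0.37 in KO hearts and -0.75 ± 0.27 in WT hearts (SD, n = 4 each). The difference of 0.14 was smaller than the spread between libraries (two-sided exact permutation test, p = 0.543, also after adjustment over the 3 ratios; 0.0286 is the smallest p that 4 against 4 allow).

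Adrb3 in the heart rested on few reads and varied with adipocyte genes. It had 5, 3, 14 and 18 reads in KO hearts, against 6, 52, 43 and 4 reads in WT hearts. WT hearts 2 and 3 held most of them, and the log2 fold change was -1.35 ± 0.78 (adjusted p = 1.0). Adipoq, secreted by adipocytes, had 50, 72, 108 and 185 reads in KO hearts, against 79, 341, 313 and 29 reads in WT hearts, so the same pair of WT hearts was highest. Per 100 reads of Adipoq there were 4.17 to 13 reads of Adrb3 in KO hearts and 7.59 to 15.2 in WT hearts. In gWAT the same ratio was 7.59 to 9.90 in KO and 4.89 to 7.15 in WT libraries. Adipoq was singled out for this after its values were seen. The part of adipose tissue attached to the hearts in these values was not tested.

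**Figure D4:**
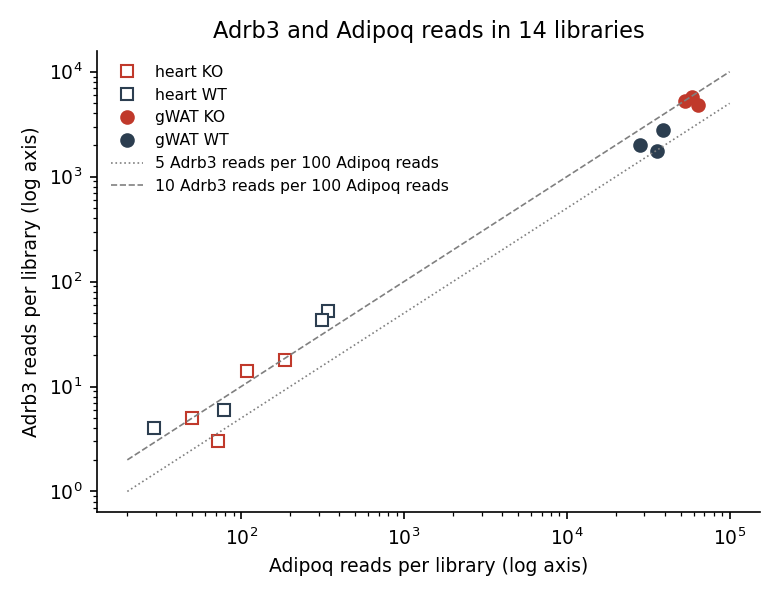
Adrb3 reads against Adipoq reads in each of the 14 libraries, both on log axes. Squares are hearts and circles gWAT, in red for KO and dark blue for WT; the grey lines mark 5 and 10 Adrb3 reads per 100 Adipoq reads. The hearts hold 29 to 341 Adipoq reads and 3 to 52 Adrb3 reads, with 4.17 to 15.2 Adrb3 reads per 100 Adipoq reads, against 4.89 to 9.90 in gWAT.

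Whether the genotype effect differed between the tissues was tested as an interaction, gWAT minus heart, in 1 fit of all 14 libraries. None of the 6 tested receptors passed, where 1.15% of the 16014 genes did. The largest difference was that of Adrb3, 2.62 ± 0.80 on the log2 scale (edgeR, adjusted p = 0.117), followed by 0.86 ± 0.35 for Adra1b (adjusted p = 0.251) and 0.82 ± 0.34 for Adrb1 (adjusted p = 0.261). The Adrb3 difference passed in 2 of 21 alternatives, with adjusted p of 0.0059 without a filter on low counts and 0.0311 without gWAT WT replicate 1. Adra1a, Adra1d and Adra2b had differences of -0.12 ± 0.34, -0.28 ± 0.46 and -0.30 ± 0.69. So the higher level of Adrb3 in KO gWAT was not shown to differ from the effect in heart.

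Around the receptors, 113 genes of signalling steps were followed in 10 lists. In KO gWAT 98 of them were tested, of which 1 was called higher and 4 lower, about the share of all genes (5.49%). In KO hearts 100 were tested and 0 were called, and 2 had an unadjusted p under 0.05. The alpha subunits of Gs, Gi and Gq and the adenylyl cyclases had no called member among 8 and 6 tested in gWAT, with median log2 fold changes of 0.10 and 0.08. Adcy7, a cyclase of blood cells among others, had the largest of these at -1.47 ± 0.36 (adjusted p = 0.0565). The cAMP effectors, which include protein kinase A, had 0 of 12 called and a median of 0.06.

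Phosphodiesterases, which break down cyclic nucleotides, held the 1 higher call. Pde1a, a calcium-activated member, rose to 47.9 ± 3.0 CPM in KO gWAT, against 19.2 ± 3.76 CPM in WT gWAT (SD, n = 3 each), a log2 fold change of 1.32 ± 0.15 (edgeR, adjusted p = 0.0154). Pde3b, the insulin-activated phosphodiesterase of adipocytes, had 414 ± 17.6 CPM in KO gWAT and 260 ± 84.7 CPM in WT gWAT (edgeR, adjusted p = 0.107). Its KO libraries all lay above its WT libraries, as in 13.3% of all tested genes. Pde1b, another calcium-activated member, lay the other way, at 18.7 ± 2.44 CPM in KO gWAT and 29.0 ± 4.89 CPM in WT gWAT. Its log2 fold change was -0.63 ± 0.16 (edgeR, adjusted p = 0.0569). The other 10 tested members did not pass either, and the median of the 13 was -0.07.

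Of the 4 lower calls in gWAT, Rgs2 lies closest to the receptors, since it speeds the shut-off of Gq. It fell to 18.8 ± 4.04 CPM in KO gWAT, against 43.1 ± 13 CPM in WT gWAT (log2 fold change -1.20 ± 0.25, adjusted p = 0.0352), and was the 1 call among 12 genes of receptor desensitisation. Ryr2, a calcium release channel best known from heart muscle, fell to 5.57 ± 0.804 CPM in KO gWAT, against 11.9 ± 2.79 CPM in WT gWAT (adjusted p = 0.0323). Slc18a1, a vesicular monoamine transporter, had 28 reads in KO and 94 reads in WT gWAT (log2 fold change -1.71 ± 0.37, adjusted p = 0.0387). Elovl3, a fatty acid elongase induced by cold in brown fat, had 9 reads in KO and 78 reads in WT gWAT (log2 fold change -3.06 ± 0.56, adjusted p = 0.0285). All 5 calls of these lists were lost in 5 to 8 of the 14 alternatives.

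The genes that carry out lipolysis were not called in KO gWAT, though 7 of 9 had a positive log2 fold change and the median was 0.24. Pnpla2, which encodes the first lipase of fat breakdown, had 1970 ± 159 CPM in KO gWAT and 1400 ± 123 CPM in WT gWAT (log2 fold change 0.49 ± 0.15, adjusted p = 0.0879). G0s2, which inhibits that lipase, had 0.34 ± 0.10 (adjusted p = 0.0845), and Abhd5, which activates it, had -0.11 ± 0.12 (adjusted p = 0.627). Lipe, the hormone-sensitive lipase, had 0.49 ± 0.19 (adjusted p = 0.163), and Mgll, which cleaves the last fatty acid, had -0.01 ± 0.16 (adjusted p = 0.971). Of 9 tested cAMP-responsive genes 1 was called lower in gWAT (Elovl3), where 3.48% of all tested genes were. Of the 9, 5 had a positive log2 fold change, and the median was 0.12. Dio2, which activates thyroid hormone, had -1.17 ± 0.28 (edgeR, adjusted p = 0.0531). Nr4a1 and Ppargc1a, both switched on by beta receptor signalling, had 0.13 ± 0.30 and 0.47 ± 0.30. Sik1 had a negative log2 fold change in both tissues and was called in neither. It had -0.47 ± 0.16 in gWAT (edgeR, adjusted p = 0.12) and -0.41 ± 0.09 in heart. Of the genes that make noradrenaline, Th was at 0 reads in the 6 gWAT libraries and Dbh had 1 read in KO and 0 in WT gWAT. In hearts Th had 1 read in KO and 0 in WT, and Dbh had 31 to 76 reads in KO libraries and 39 to 77 in WT libraries.

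**Figure D5:**
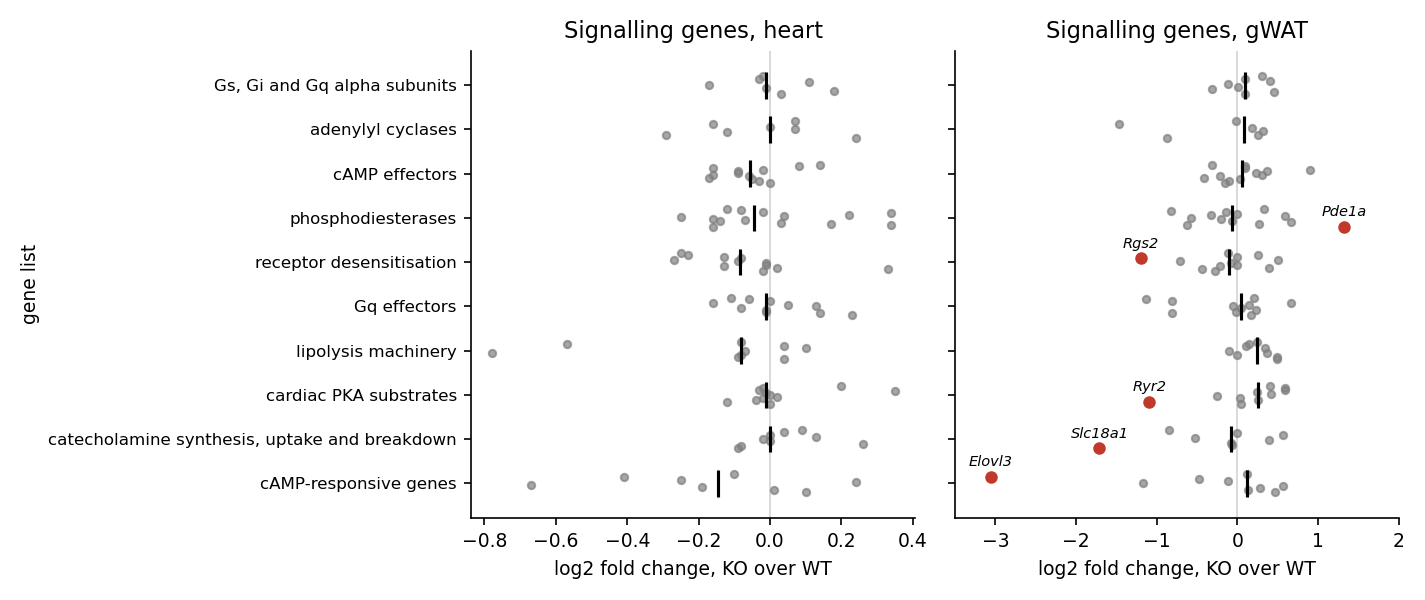
Log2 fold change of KO over WT for the tested genes of 10 signalling lists in heart (left) and gWAT (right), with different axis ranges. Each point is a gene, the black line is the median of the list and red points with names passed an adjusted p of 0.05. The 5 named genes are all in gWAT, 1 higher and 4 lower in KO.

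For each receptor with a mean log2 CPM above 0, the genes most like it across the libraries of a tissue were taken by Pearson's r of log2 CPM, over both genotypes, as a description. Across the 6 gWAT libraries Adrb3 was most like Mapkbp1 (r = 0.997), Sdr39u1 (r = 0.994) and Selenbp1 (r = 0.992), of 12090 genes compared. Sdr39u1 and Selenbp1 were themselves called higher in KO gWAT, with log2 fold changes of 0.60 and 0.83. Across the 8 hearts Adrb3 was most like Trarg1 (r = 0.949), Adipoq (r = 0.938) and Dlc1 (r = 0.936), of 11691 genes compared. Adrb1 was most like R74862 (r = 0.951) in heart and Cstf3 (r = 0.984) in gWAT, and Adra1b was most like Cidea (r = 0.969) in heart and Senp8 (r = 0.991) in gWAT. Adra1a was most like Nadk2 (r = 0.982) in heart and Ikbip (r = 0.996) in gWAT, Adra1d like Parp10 (r = 0.969) in heart and Dhx15 (r = 0.993) in gWAT, and Adra2b like Fam213b (r = 0.976) in heart. With 6 or 8 libraries and so many genes, high values of r are easily reached, and the libraries share their depth and makeup.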

How the data were processed

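RNA-seq libraries of heart and gWAT from KO and WT mice were made from Trizol-extracted RNA with a Kapa mRNA HyperPrep kit, per the labels' protocols. The authors deposited 1 table of raw read counts per Ensembl gene. The submitters' processing notes name FastQC, Trimmomatic 0.32, HISAT2 2.1.0, HTSeq 0.11.0, Picard, limma and mm10, with no role or order. The sources used here give neither the annotation release nor whether counting used strand. Every column of the table matched a sample, and 0 columns were left without one. No library pair within a group agreed within sampling noise.

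Each tissue was fitted on its own with edgeR 4.0.16 in R 4.3.3 (quasi-likelihood F test, filterByExpr with a minimum count of 10, TMM scaling, Benjamini-Hochberg adjustment over all tested genes, threshold 0.05). The tissue contrast and the interaction came from 1 fit of all 14 libraries. Standard errors were taken from the log2 fold change and its F statistic. CPM used library sizes scaled by TMM within each tissue, and RPKM merged exon lengths of GENCODE M21. Library totals without TMM were used for the Adipoq ranges of the tissue check and the summed marker levels. They were also used for the marker means, as log2(CPM + 0.5), and for Adrb3 set against them. The 3 receptor ratios were tested by exact permutation over libraries. The fits were also run on simulated counts with the same spread for every gene. Those counts held no differences in makeup between libraries, so they do not cover the dependence on single libraries reported here. Alternatives were another scaling (RLE), no filter or a mean of at least 10 counts, DESeq2 1.42.0, limma-voom (limma 3.58.1), a replicate block, 1 fit of all libraries, the atrial level as covariate, and each library left out. Scaling by library totals alone was chosen after seeing the data.

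Same-numbered hearts deviated together (correlations of 0.258 to 0.374 over 4 pairs), which meets the rule used for pairing (over 0.1 in every pair). Differently numbered hearts within 1 and 2 or within 3 and 4 correlated at 0.172 to 0.465, so the pattern follows the atrial split too, and 5 of 8 hearts correlated best with their own number. In gWAT same-numbered libraries did not deviate together (-0.218 to 0.0291 over 3 pairs). The members and lists were chosen with earlier results of these data known. Named genes are the 8 receptors, Fhl2 and up to 4 called genes of each signalling list. They also include up to 3 defining genes of each marker list and the 3 genes most like each receptor. Not all of these are printed. Adcy7, Pde3b, Pde1b, Pnpla2, G0s2, Abhd5, Lipe, Mgll, Dio2, Nr4a1, Ppargc1a, Sik1, Cfd, Retn and Lep were added after their values were seen. Intervals and floors cover counting error only.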

Additional observations from a re-analysis of the deposited data

Results flagged for a closer look

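Single libraries were looked for in the groups of 4 hearts, over the 8 receptors and the Adrb1 to Adra1b ratio, 18 sets of values in all. In 3 of them 1 library lay far from the rest of its group. Chance flags about 1 in 20 groups, a rate that does not apply to Adra2a, where 1 read among libraries at 0 is always flagged. Adrb1 in WT hearts had its lowest value, 8.82 CPM, in WT heart 1, and without that library the log2 fold change of KO over WT was -0.09. Adra1d in WT hearts had its highest value, 2.43 CPM, in WT heart 3. Adra2a in WT hearts had its highest value, 0.0847 CPM, in the 1 library with a read.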

How the results depend on the processing

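In gWAT 834 genes were called, against 1600 without a filter, 1769 with DESeq2, 477 with limma-voom, 1725 in 1 fit of all 14 libraries and 0 with the replicate block (2922 at an unadjusted p under 0.05 by edgeR). Leaving out 1 library gave 0 to 2908 calls, with 0 without WT 4, KO 1, KO 3 or KO 4 (edgeR, unadjusted 2374, 3191, 2736 and 2787) and 2908 without WT 1. Adrb3 in gWAT had a log2 fold change of 1.32 with the replicate block (adjusted p = 0.055) and an adjusted p of 0.0507 in the fit of all libraries (edgeR). In heart 1 gene was called, against 3 without a filter, 2 with DESeq2 and 6 with the atrial covariate; the replicate block changed no receptor call there. The interaction had 184 calls, against 533 without a filter, 669 with DESeq2, 69 with limma-voom and 3 to 1315 with 1 library left out.

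Small receptor effects changed sign with 1 library left out. The log2 fold change of Adra1a ranged from -0.14 to 0.11 in gWAT and from -0.09 to 0.27 in heart, and in heart Adrb1 ranged from -0.09 to 0.08, Adra1b from -0.15 to 0.08 (0.04 with the atrial covariate) and Adra1d from -0.11 to 0.59. The difference between tissues ranged from -0.31 to 0.05 for Adra1a, from -0.69 to 0.01 for Adra1d and from -0.65 to 0.72 for Adra2b. The Adrb1 to Adra1b ratio in heart differed by -0.02 (without KO 2) to 0.26 between genotypes. The cause was not tested. Depth limits the alpha-2 genes, which had at most 14 reads per gWAT library.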
